A study of Mus musculus with 12 samples.

Results

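The fetal and stress gene program of the heart was followed through 10 named genes (Nppa, Nppb, Myh6, Myh7, Acta1, Rcan1, Sprr1a, Uchl1, Tnfrsf12a and Hopx). They were listed as known cardiac stress genes rather than by a measured threshold, but with earlier results of these data known. Their counts of calls beside the share over all genes are therefore a description and not an independent test. All 10 were found among the 26781 genes of the deposited expression table, by matching Ensembl identifiers to mouse symbols, and all 10 passed the filter on low values. Hearts of C57BL/6J mice were compared in 4 groups of 3 libraries each, labelled sham, MI, CIH and MI+CIH. The labels give only these abbreviations. From the study's topic, the heart after infarction in sleep breathing disorders, MI is read here as myocardial infarction, CIH as chronic intermittent hypoxia, MI+CIH as both and sham as neither. CIH imitates the repeated drops in oxygen of sleep breathing disorders. The labels give no age, sex, hypoxia schedule, time after surgery or part of the heart sampled. They do not say whether each library is 1 animal, so every p-value below measures only the spread between libraries that are labelled as separate samples.

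An adult mouse ventricle runs mainly on alpha-myosin heavy chain (Myh6), while the fetal ventricle uses the slower beta-myosin heavy chain (Myh7), skeletal alpha-actin (Acta1) and the natriuretic peptides (Nppa, Nppb). Under mechanical load or injury, ventricular muscle cells take up part of this fetal pattern again. The shift is used as a molecular sign of cardiac stress, and Nppa stays a normal product of atrial muscle throughout life.

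Infarction was the condition with which these genes moved. Averaged over hearts with and without hypoxia, 7 of the 10 genes rose and 1, Hopx, fell, in a table where 24.1% of the 15503 genes tested passed the same threshold (17.2% rose and 6.89% fell). The largest rise was in Sprr1a, a small proline-rich protein of stressed muscle and skin, with a log2 fold change of 3.51 (SE 0.45). Hypoxia averaged over hearts with and without infarction moved 0 of the 10, and 0% of all genes passed. Myh6 and Myh7 did not pass in any comparison, and Myh7 exceeded Myh6 in 1 library, MI+CIH 3. When each library was left out in turn, between 5 and 7 members passed in place of 8 for infarction, with 5 left without MI 2, CIH 1 or CIH 3.

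Depth was similar across the 12 libraries. The number of reads behind each library, recovered from the steps of its FPKM values (fragments per kilobase of exon, scaled to the library's reads), ran from an estimated 26063293 to 33418042. Pearson correlations of log2 values between libraries of a group were 0.961 to 0.965 for sham, 0.963 to 0.97 for MI, 0.945 to 0.961 for CIH and 0.932 to 0.941 for MI+CIH. On the first principal component, which held 35.3% of the variance, MI+CIH 3 lay farthest out at 71.8. All 8 cardiomyocyte markers checked (for example Tnnt2, Tnni3 and Actn2) were present in every library, the lowest value being 41.1 FPKM for Ryr2 in MI+CIH 3. Their sum was 7203 to 8824 FPKM in sham, 6610 to 7036 for MI, 8513 to 9835 for CIH and 4190 to 6782 for MI+CIH. Lung and airway markers summed to 545 FPKM in sham 2 and to 312, 3501 and 1239 in MI+CIH 1, 2 and 3, and to at most 17.2 in the other libraries.

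**Figure D1:**
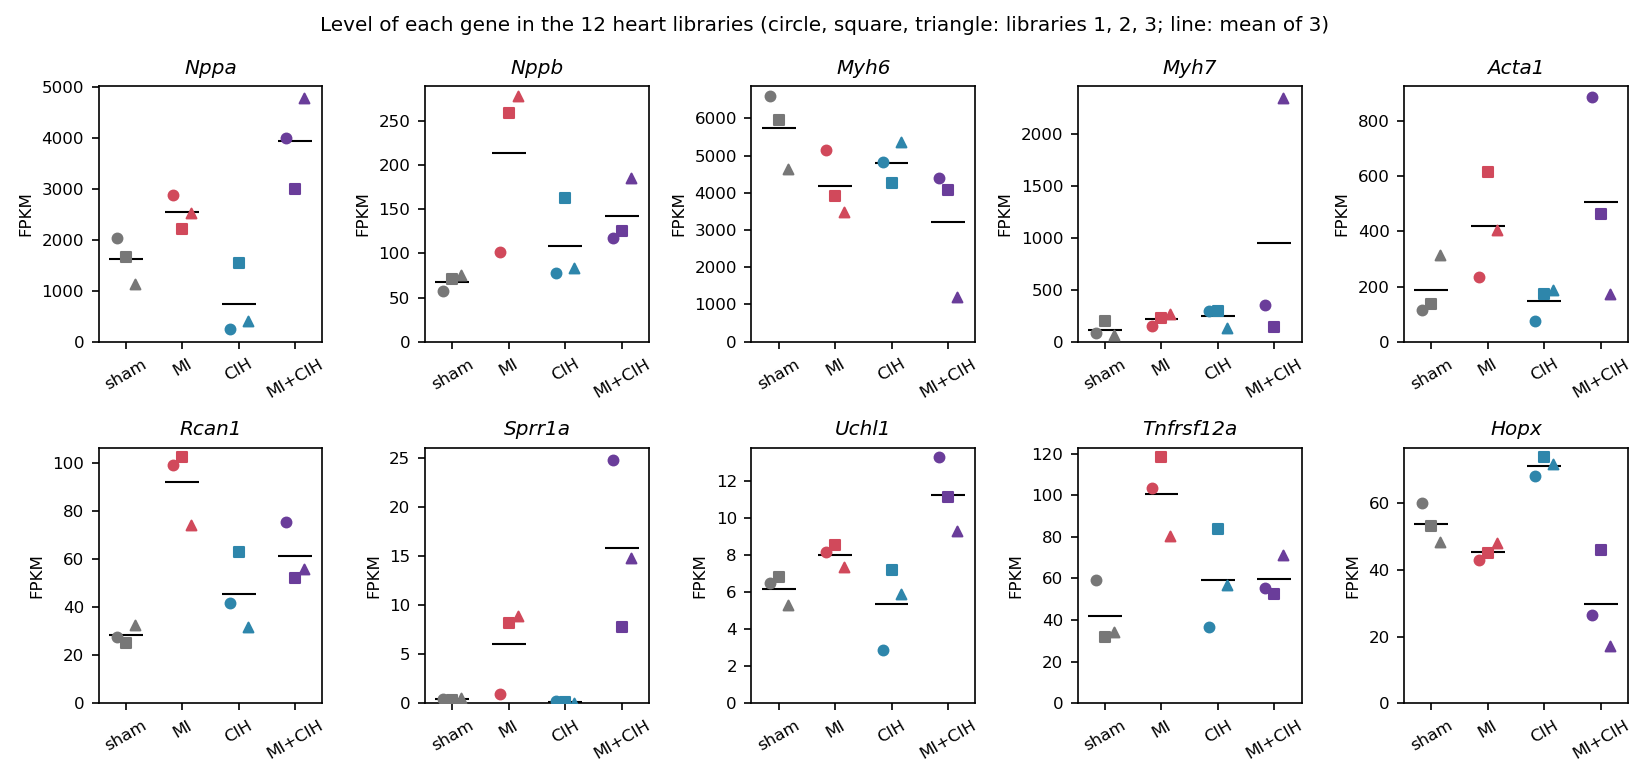
Level of each of the 10 genes in FPKM (linear axes from 0) in every library, by group; circles, squares and triangles are libraries 1, 2 and 3 and the line is the mean of 3. Sprr1a is under 0.5 FPKM in all sham and CIH libraries and between 0.927 and 24.8 in those with infarction, and Myh7 stands at 2346 FPKM in MI+CIH 3 alone.

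The natriuretic peptides are the secreted members of the program. Nppa encodes atrial natriuretic peptide and Nppb encodes brain natriuretic peptide, and both act on vessels and kidney to lower blood volume and pressure. The genes are neighbours on chromosome 4, Nppb at 147985788 to 147987205 and Nppa at 148000722 to 148002079 on the plus strand (mm10/GRCm38, GENCODE M21), both exonic counts over a single gene model. Their promoters are shown because the neighbours ranked the 4 groups differently. Each line gives 250 bases before and 50 after the RefSeq start (GRCm38.p6), chr4:148000472-148000771 for Nppa and chr4:147985650-147985949 for Nppb, both plus strand. Capitals mark TATAAA, which was searched on the gene's own strand only. They also mark CATTCC, the core of a muscle element, which was searched on both strands. The last motif marked is AGATAA, a binding core of GATA factors, also searched on both strands.
Nppa promoter: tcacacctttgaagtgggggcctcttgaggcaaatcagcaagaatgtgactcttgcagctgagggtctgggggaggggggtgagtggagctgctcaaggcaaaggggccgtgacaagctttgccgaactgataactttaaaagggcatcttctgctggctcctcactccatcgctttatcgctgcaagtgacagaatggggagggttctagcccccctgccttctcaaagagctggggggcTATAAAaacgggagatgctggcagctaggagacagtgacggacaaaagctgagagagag
Nppb promoter: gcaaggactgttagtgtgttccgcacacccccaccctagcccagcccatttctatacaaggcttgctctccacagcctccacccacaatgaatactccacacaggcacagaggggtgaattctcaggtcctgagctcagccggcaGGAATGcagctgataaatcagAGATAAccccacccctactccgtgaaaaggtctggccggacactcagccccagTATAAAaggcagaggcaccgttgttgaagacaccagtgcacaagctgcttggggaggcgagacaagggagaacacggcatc
TATAAA occurs in 8.32%, CATTCC in 14.7% and AGATAA in 11.2% of 32851 RefSeq promoters of the same length, so their presence in the Nppb window is a description only.

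The FPKM of Nppa was 2038, 1666 and 1136 in sham, 2872, 2203 and 2529 in MI, 243, 1549 and 414 in CIH, and 4004, 2995 and 4787 in MI+CIH (libraries 1, 2 and 3). All 3 MI+CIH libraries lay above every other library, all 3 MI libraries above every sham and CIH library, and only sham and CIH overlapped. Against CIH, MI+CIH hearts had a log2 fold change of 2.84 (SE 0.54, adjusted p = 0.0043), which was 3.6 without CIH 2, the highest CIH library. In that comparison 28.2% of all genes passed (19.9% rose and 8.26% fell), and Nppa ranked 823 of 15503 by p. Against sham, MI alone differed by 0.68 (SE 0.54, adjusted p = 0.57) and MI+CIH by 1.3 (SE 0.54, adjusted p = 0.118). CIH alone lay 1.54 below sham on the log2 scale (log2 fold change -1.54, SE 0.54, adjusted p = 0.331). Averaged over hypoxia, infarction raised Nppa by 1.76 (SE 0.38, 95% interval 0.93 to 2.59, adjusted p = 0.008).

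Because Nppa is made at high level in atria, the atrial content of each heart sample bears on its value. The 8 atrial markers summed to 698 to 930 FPKM in sham, 287 to 1586 for MI, 175 to 825 for CIH and 653 to 1453 for MI+CIH, and none was at 0 (the lowest was Bmp10, an atrial growth factor, at 0.0583 in MI 2). In MI+CIH against CIH 3 of the 8 rose (Dkk3, Nr2f2 and Pam), where 19.9% of all genes rose. Averaged over hypoxia 1 rose (Dkk3), where 17.2% of all genes did. Myl7, the atrial myosin light chain, stood at 84.5, 552 and 156 FPKM in CIH 1, 2 and 3, where Nppa stood at 243, 1549 and 414. In MI 2 and MI 3 Myl7 was 218 and 119 FPKM, below all 3 sham libraries (470 to 626), while Nppa was above them. The other atrial markers were divided there. Bmp10, Sln and Myl4 were also below all sham libraries, and Nr2f2 overlapped them. Dkk3 (30.55 and 33.25 FPKM), Kcna5 (24.63 and 20.93) and Pam (64.14 and 69.58) were above all sham libraries. Kcna5 was also above all sham libraries in CIH 1, 2 and 3 (23.22, 21.53 and 26.56 FPKM), including the libraries with low Myl7. Dkk3 and Pam were below all sham libraries in CIH 1 and CIH 3, and in CIH 2 Pam was above them and Dkk3 overlapped them. The part of atrial tissue in the Nppa differences was not tested further.

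**Figure D2:**
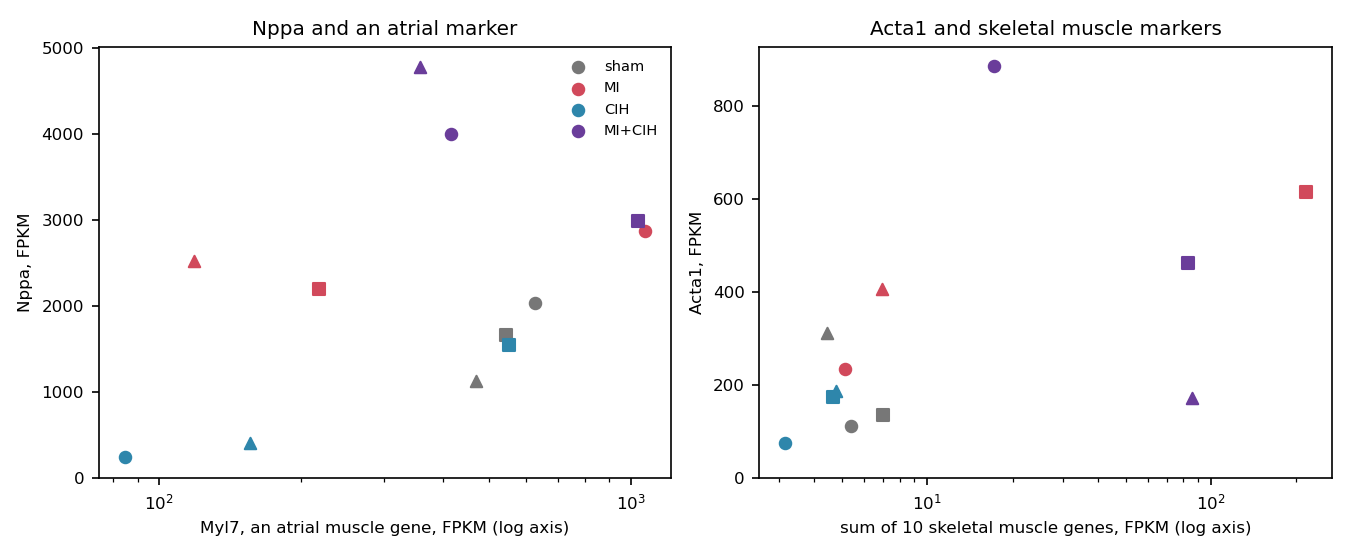
Left, Nppa against Myl7, an atrial muscle gene; right, Acta1 against the sum of 10 skeletal muscle genes; 1 point per library, all values in FPKM, x axes logarithmic. The CIH libraries with low Nppa (243 and 414) also have low Myl7, MI 2 and MI 3 have high Nppa at low Myl7, and MI+CIH 1 has the highest Acta1 (886) at a skeletal sum of 17.2.

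Nppb ordered the groups another way. Its FPKM was 57.3, 70.8 and 75.0 in sham, 102, 259 and 278 in MI, 78.1, 163 and 82.9 in CIH, and 117, 125 and 185 in MI+CIH. All 3 sham libraries lay below the other 9, and the other 3 groups overlapped, with the highest mean in MI (213 ± 96.9, SD, n = 3). MI against sham gave a log2 fold change of 1.52 (SE 0.39, adjusted p = 0.0748), which passed without MI 1 (1.99, adjusted p = 0.0221). MI+CIH against CIH gave 0.45 (SE 0.39, adjusted p = 0.408), and infarction averaged over hypoxia gave 0.99 (SE 0.27, adjusted p = 0.0242). The averaged call was lost without sham 1 (adjusted p = 0.0598), MI 2 (0.0582), MI 3 (0.0576), CIH 1 (0.0505), CIH 3 (0.0583) or MI+CIH 3 (0.0572). The level of Nppa relative to Nppb was 15.1 to 35.5 for sham, 8.5 to 28.2 for MI, 3.12 to 9.50 for CIH and 24.0 to 34.1 for MI+CIH, as a ratio of FPKM.

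Of 10 other genes of the natriuretic pathway (receptors, processing enzymes and the cGMP kinase and phosphodiesterases downstream), 9 were tested. Averaged over hypoxia, 2 rose, Prkg1, the cGMP-dependent kinase (0.37, SE 0.09), and Pde5a, a cGMP phosphodiesterase (0.48, SE 0.12), and 0 fell, where 24.1% of all genes passed (17.2% rose). Their median log2 fold change was 0.17, against 0.13 over all genes. In MI against sham 0 of the 9 passed, the smallest p belonging to the receptor Npr2 (-0.22, SE 0.10, adjusted p = 0.321). In MI+CIH against CIH, Corin, the protease that matures the Nppa product, fell (-0.47, SE 0.16) while Prkg1 (0.70) and Pde5a (0.85) rose, which makes 3 calls among 9 where 28.2% of all genes passed.

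The cardiac myosin heavy chains lie head to tail on the minus strand of chromosome 14, Myh6 at 54941921 to 54966927 and Myh7 at 54970684 to 54994626 (GRCm38). Each carries a microRNA in an intron, miR-208a in Myh6 and miR-208b in Myh7, which are shown because the pair shares its seed while its host genes trade places in cardiac stress. Capitals mark bases 2 to 8, the seed, in the RefSeq mature sequences.
mmu-miR-208a-3p: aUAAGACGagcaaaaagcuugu
mmu-miR-208b-3p: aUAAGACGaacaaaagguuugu
Their seeds are identical (UAAGACG), at chr14:54949072-54949093 and chr14:54975710-54975731 (GRCm38.p6, minus strand).

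Myh6 was the more abundant myosin in 11 of the 12 libraries. Its FPKM was 6601, 5968 and 4637 in sham, 5157, 3924 and 3482 in MI, 4817, 4258 and 5365 in CIH, and 4386, 4071 and 1211 in MI+CIH. The MI+CIH libraries all lay below the sham libraries and the other groups overlapped. MI+CIH against sham gave a log2 fold change of -1.03 (SE 0.42, adjusted p = 0.116), and infarction averaged over hypoxia gave -0.62 (SE 0.30, adjusted p = 0.152).

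Myh7 was low in most hearts. Its FPKM was 88.6, 197 and 62.5 in sham, 151, 225 and 266 in MI, 297, 299.8 and 132 in CIH, and 355, 138 and 2346 in MI+CIH. The groups overlapped throughout, and the mean of MI+CIH (946 ± 1217, SD, n = 3) rested on MI+CIH 3, whose value came from 566272 reads. MI against sham gave 1.01 (SE 0.85, adjusted p = 0.603) and CIH against sham gave 1.14 (SE 0.85, adjusted p = 0.626). MI+CIH against sham gave 2.23 (SE 0.85, adjusted p = 0.0973), which passed without MI+CIH 2 (3.14, adjusted p = 0.0188). The myosins are near-identical over long stretches, so the submitters' counting could move reads between them.

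The balance was expressed per library as the log2 ratio of Myh6 to Myh7. It was 6.22, 4.92 and 6.21 in sham, 5.09, 4.13 and 3.71 in MI, 4.02, 3.83 and 5.35 in CIH, and 3.63, 4.89 and -0.95 in MI+CIH. In sham 1 Myh6 was 74.5 times Myh7, and in MI+CIH 3 it was 0.516 times Myh7. Myh7 made up 1.32% to 3.19% of both in sham, 2.85% to 7.1% for MI, 2.4% to 6.58% for CIH, and 7.49%, 3.27% and 66% in MI+CIH 1, 2 and 3. Every group overlapped sham except MI+CIH, whose highest library (4.89) lay just under the lowest sham library (4.92).

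The mean log2 ratio was 5.78 ± 0.75 for sham, 4.31 ± 0.71 for MI, 4.40 ± 0.83 for CIH and 2.52 ± 3.07 for MI+CIH (SD, n = 3 each). The 3 comparisons with sham gave differences of -1.48 for MI (exact two-sided permutation p = 0.2), -1.39 for CIH (exact permutation p = 0.2) and -3.27 for MI+CIH (exact permutation p = 0.1). With 20 arrangements of 3 against 3 libraries the smallest possible p is 0.1. MI+CIH differed from MI by -1.79 and from CIH by -1.88 (exact permutation p = 0.4 for each), and without MI+CIH 3 these differences were -0.05 and -0.14 (exact permutation p = 0.9 for each). MI+CIH differed from sham by -1.53 without it (exact permutation p = 0.2). Averaged over the other factor, infarction lowered the log2 ratio by a difference of -1.68 (exact permutation p = 0.05 over 400 arrangements) and hypoxia by -1.59 (exact permutation p = 0.075), neither below 0.05. Without MI+CIH 3 the infarction value was -0.81 (exact permutation p = 0.14) and the hypoxia value -0.72 (exact permutation p = 0.17). The interaction of the ratio, which has no test here, was -0.40 and turned to 1.33 without MI+CIH 3. The infarction value fell below the threshold without sham 2 (-1.89, exact permutation p = 0.04), MI 1 (-1.87, exact permutation p = 0.045) or MI+CIH 2 (-2.27, exact permutation p = 0.01). The hypoxia value fell below it without MI+CIH 2 (-2.18, exact permutation p = 0.015).

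**Figure D3:**
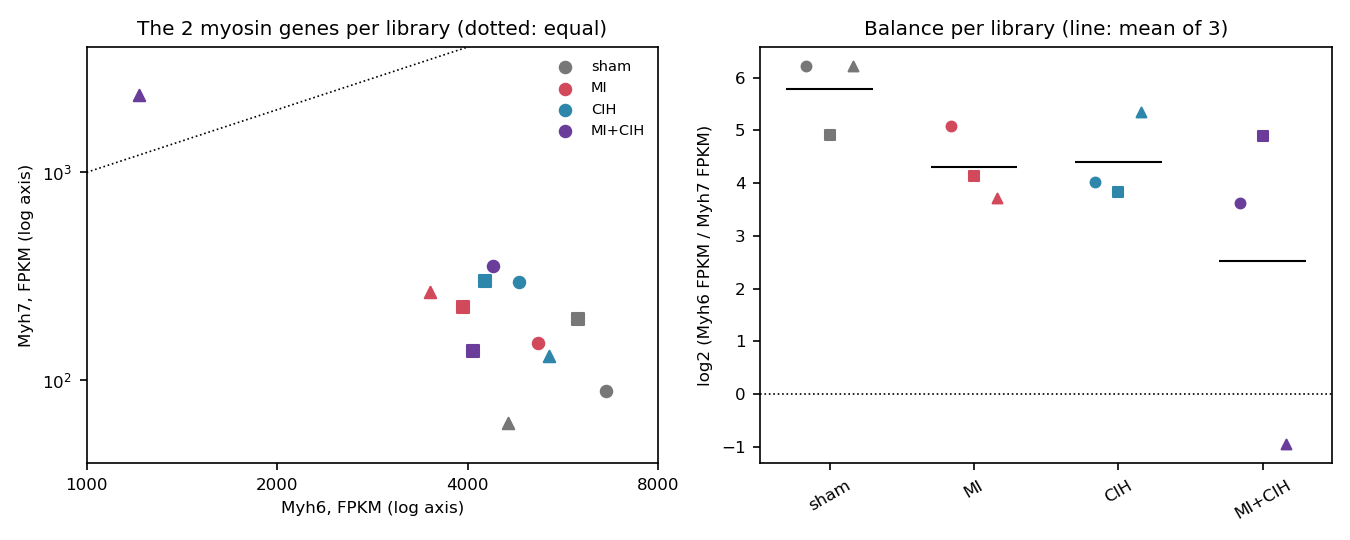
Left, Myh7 against Myh6 in FPKM on log axes, with the dotted line where both are equal; right, the log2 ratio of Myh6 to Myh7 per library, the bar being the mean of 3. MI+CIH 3 lies above the line of equality with a log2 ratio of -0.95, and the other 11 libraries lie between 3.63 and 6.22.

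Other readings in MI+CIH 3 stood beside its myosin balance. It had the lowest cardiomyocyte marker sum (4190 FPKM) and the lowest Hopx (17.1 FPKM), and a skeletal muscle marker sum of 85.5 FPKM. Myh7 is also the myosin of slow skeletal fibres. Tnni1, a slow skeletal troponin that is not restricted to skeletal muscle, was at 0.833 FPKM in this library. That low value was the highest of the 12 (0.067 to 0.487 in the others). Tnnt1, another slow skeletal troponin, was at 3.045 FPKM there, the lowest of the 12 (3.222 to 10.36 in the others). MI 2, with the highest skeletal sum (216 FPKM), had Myh7 at 225 FPKM. Reads over the miR-208b hairpin numbered 42 in MI+CIH 3, 0 to 13 in the other 11 libraries, and 0, 1 and 0 in sham. Reads over the miR-208a hairpin numbered 5 in MI+CIH 3 and 13 to 61 elsewhere. Hairpin reads and intron reads of the host cannot be told apart in these counts. Their part in the myosin balance was not tested.

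In the averaged comparison, where 24.1% of all genes passed, lists linked to the myosin switch held 4 calls among 13 sarcomere genes, 3 among 9 thyroid genes and 5 among 15 transcription factors. Of 14 other sarcomere isoform genes, 13 were tested, and averaged over hypoxia 2 rose, Tpm3 (0.53, SE 0.15) and the smooth muscle actin Acta2 (0.80, SE 0.25), and 2 fell, the ventricular light chains Myl3 (-0.84, SE 0.18) and Myl2 (-0.54, SE 0.16). Thyroid hormone drives Myh6 and represses Myh7, and 9 of 11 genes of its action were tested. Dio2, the enzyme that makes the active hormone in tissue, rose in MI against sham (2.71, SE 0.40, adjusted p = 0.0128) and averaged over hypoxia (2.47, SE 0.29, adjusted p = 0.000646). The transporter Slc16a10 (-0.42, SE 0.09) and the retinoid receptor Rxrg (-0.75, SE 0.22) fell in the averaged comparison. Among 15 cardiac transcription factors, Rest, a repressor of fetal cardiac genes, rose (0.25, SE 0.08) and 4 fell, led by Irx4, a ventricular factor (-1.19, SE 0.14), and Nkx2-5 (-0.53, SE 0.11), in the averaged comparison. Irx4 also fell in MI alone against sham (-1.07, SE 0.20, adjusted p = 0.0259). The median log2 fold changes of the averaged comparison were -0.40 for the sarcomere list, 0.08 for the thyroid list and -0.16 for the transcription factors, against 0.13 over all genes. The 8 cardiomyocyte markers moved beside them, 4 of them falling (Pln, Ryr2, Cox6a2 and Mybpc3), where 6.89% of all genes fell. In RNA of heart tissue, fewer cells of a type and less RNA per cell cannot be told apart.

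Acta1, the skeletal alpha-actin of the fetal heart, lies on chromosome 8 at 123891769 to 123894751, minus strand (GRCm38). Its promoter is shown because it carries the CArG box, the binding sequence of serum response factor, beside a CATTCC core. The window is chr8:123894726-123895025 (GRCm38.p6, minus strand), capitals mark TATAAA on its own strand, and the CArG box and CATTCC on both strands.
Acta1 promoter: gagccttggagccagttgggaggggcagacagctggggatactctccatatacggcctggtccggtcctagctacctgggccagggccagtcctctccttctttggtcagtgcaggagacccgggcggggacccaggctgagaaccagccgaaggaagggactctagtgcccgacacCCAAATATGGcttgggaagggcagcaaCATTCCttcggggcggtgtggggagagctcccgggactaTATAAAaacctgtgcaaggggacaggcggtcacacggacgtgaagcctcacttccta
A CArG box occurs in 1.63% of promoters of this length. It is not particular to Acta1 among the members. The window of Hopx, the member that fell, at chr5:77115074-77115373 also holds 1 (CCAAATAAGG), and the Hopx window at chr5:77095218-77095517 holds 0.

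Acta1 stood at 114, 135 and 312 FPKM in sham, 234, 614 and 406 in MI, 76.6, 175 and 187 in CIH, and 886, 464 and 173 in MI+CIH. The 4 groups overlapped, the highest library being MI+CIH 1 and the lowest CIH 1. Infarction averaged over hypoxia gave a log2 fold change of 1.4 (SE 0.44, adjusted p = 0.0423). The call was lost under scaling by medians of ratios (1.26, adjusted p = 0.07) and without any 1 of sham 1, sham 2, MI 2, MI 3, CIH 1, CIH 2, CIH 3, MI+CIH 1 or MI+CIH 2 (adjusted p 0.0531 to 0.0956). In MI+CIH against CIH the value was 1.61 (SE 0.63, adjusted p = 0.0793), and 2.23 without MI+CIH 3 (adjusted p = 0.0274). The 10 skeletal muscle markers, whose tissue also makes Acta1, summed to 4.44 to 6.97 FPKM in sham and 5.16, 216 and 6.92 in MI. Their sum was 3.17 to 4.78 for CIH, and 17.2, 83.1 and 85.5 in MI+CIH. In the averaged comparison 4 of them rose, where 17.2% of all genes did. Myh4, the fast fibre myosin, was at 0 in sham 2, sham 3 and all 3 CIH libraries. MI 3, with a skeletal sum of 6.92 FPKM, had Acta1 above all 3 sham libraries. The part of skeletal muscle in the Acta1 values was not tested further.

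Rcan1 encodes a feedback inhibitor of calcineurin, the phosphatase that activates NFAT factors in growing heart muscle. It lies on chromosome 16 at 92391953 to 92470867, minus strand (GRCm38), and is read from an outer and an inner start, which the gene-level values do not separate. The promoter of the inner start, the one known to answer calcineurin, is shown at chr16:92400029-92400328 (GRCm38.p6, minus strand), with GGAAA, the NFAT core, and TGANTCA, the AP-1 core, in capitals (both strands).
Rcan1 inner promoter: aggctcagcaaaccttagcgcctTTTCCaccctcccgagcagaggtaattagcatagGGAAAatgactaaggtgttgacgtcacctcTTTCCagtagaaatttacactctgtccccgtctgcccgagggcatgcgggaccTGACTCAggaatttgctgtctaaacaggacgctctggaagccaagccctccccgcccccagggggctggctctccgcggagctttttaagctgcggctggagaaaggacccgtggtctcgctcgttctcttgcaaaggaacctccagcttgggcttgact
It held 3 GGAAA and 1 TGANTCA, which 61.3% and 7.81% of promoters of this length hold at least once, and the window of the outer start held 0 of each.

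Rcan1 alone of the 10 genes passed in MI against sham, where 1.96% of all genes did (1.37% rose and 0.593% fell). Its FPKM was 27.5, 25.0 and 32.4 in sham, 99.3, 103 and 74.3 in MI, 41.9, 63.1 and 31.8 in CIH, and 75.7, 52.0 and 55.8 in MI+CIH. The sham libraries lay below all MI and MI+CIH libraries, and CIH overlapped both sham and MI+CIH. MI against sham gave a log2 fold change of 1.68 (SE 0.25, 95% interval 1.14 to 2.21, adjusted p = 0.0114), ranked 29 of 15503 by p. The call was lost without sham 1 (1.66, adjusted p = 0.0661), sham 2 (1.59, adjusted p = 0.0584) or MI 2 (1.59, adjusted p = 0.067), when 0 members passed. Without MI 1, 3 members passed, and without CIH 1 or CIH 2, 2 did. MI+CIH against sham gave 1.09 (SE 0.25, adjusted p = 0.0143), lost without sham 1 (adjusted p = 0.0539) or sham 2 (adjusted p = 0.053). MI+CIH against CIH gave 0.46 (SE 0.25, adjusted p = 0.183), 0.72 without CIH 2 (adjusted p = 0.0411), and the averaged infarction value was 1.07 (SE 0.17, adjusted p = 0.00213). Of 11 other genes of the calcineurin pathway, 0 passed in MI against sham (smallest p, Nfatc4, 0.55, SE 0.18, adjusted p = 0.155). Averaged over hypoxia Nfatc4 (0.45, SE 0.13) and Nfatc1 (0.54, SE 0.16) rose and Rcan2, the sister inhibitor, fell (-0.39, SE 0.10), where 24.1% of all genes passed.

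Sprr1a lies on chromosome 3 at 92483952 to 92485895, minus strand (GRCm38). Its product is induced through gp130 cytokines in stressed cardiomyocytes and is a component of the cornified skin envelope. Its promoter (chr3:92485832-92486131, GRCm38.p6, minus strand) is shown because the gene had the largest change of the 10 and holds a pair of TGANTCA sites, in capitals with TATAAA.
Sprr1a promoter: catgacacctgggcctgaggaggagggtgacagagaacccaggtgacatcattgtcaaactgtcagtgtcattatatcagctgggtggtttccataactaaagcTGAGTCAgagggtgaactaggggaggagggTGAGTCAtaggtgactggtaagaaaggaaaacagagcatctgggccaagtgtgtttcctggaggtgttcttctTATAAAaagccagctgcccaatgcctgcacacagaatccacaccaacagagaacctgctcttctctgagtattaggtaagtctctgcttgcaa
The motif TGANTCA, searched on both strands, occurs at least once in 7.81% of promoters of this length.

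Sprr1a was nearly silent in hearts without infarction. Its FPKM was 0.462, 0.308 and 0.491 in sham (11, 7 and 12 reads), 0.927, 8.17 and 8.89 in MI (23, 176 and 215 reads), 0.176, 0.149 and 0 in CIH (4, 4 and 0 reads), and 24.8, 7.74 and 14.8 in MI+CIH (522, 177 and 335 reads). A count of 0 in CIH 3 allows up to 0.112 FPKM (3 reads, counting error only). All libraries with infarction lay above all without, MI 1 being the lowest of them, and MI and MI+CIH overlapped. On the log2(FPKM + 0.5) scale MI+CIH exceeded CIH by 4.61 (SE 0.63, adjusted p = 0.00184) and sham by 4.01 (SE 0.63, adjusted p = 0.00483). MI exceeded sham by 2.41 (SE 0.63, adjusted p = 0.0875), and by 3.3 without MI 1 (adjusted p = 0.00834). The averaged infarction value was 3.51 (SE 0.45, adjusted p = 0.000906), and 2.88 to 4.64 over the alternatives tried. This scale understates changes of genes as low as this one, and the pseudocounts of 0.1 and 1 are among those alternatives.

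Of 8 keratinised epithelium genes 5 had a row in the table, and their sum was 0.398 to 1.31 FPKM in sham, 0.388 to 1.29 for MI, 0.499 to 0.565 for CIH and 1.03 to 4.97 for MI+CIH. In MI+CIH against CIH both tested members, Krt14 and Krt5, rose, where 19.9% of all genes did. Krt14 also rose in the averaged comparison (1.02, SE 0.28), where 17.2% of all genes did. MI 3, whose epithelial sum was the lowest of all libraries at 0.388 FPKM, had Sprr1a at 8.89 FPKM. Of the lung and airway markers, 5 of the 6 tested rose in MI+CIH against CIH (19.9% of all genes). In the averaged comparison 2 of the 6 rose (17.2% of all genes). In MI 2 and MI 3 these markers summed to 0.864 and 0.849 FPKM beside Sprr1a at 8.17 and 8.89. The part of epithelium in the Sprr1a values was not tested further. In the gp130 list 8 of 10 genes were tested, and averaged over hypoxia 4 rose and 0 fell (17.2% and 6.89% of all genes), led by the receptors Osmr (0.94, SE 0.13) and Il6ra (0.98, SE 0.16). The median of the list was 0.39, against 0.13 over all genes. None of the 8 passed in MI against sham (Osmr 0.62, SE 0.18, adjusted p = 0.12).

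Uchl1 encodes a ubiquitin C-terminal hydrolase abundant in neurons and raised in failing heart muscle, and lies on chromosome 5 at 66676091 to 66687234 (GRCm38). Its FPKM was 6.46, 6.80 and 5.27 in sham, 8.16, 8.55 and 7.31 in MI, 2.87, 7.19 and 5.89 in CIH, and 13.3, 11.1 and 9.30 in MI+CIH. The MI+CIH libraries lay above all others, the MI libraries above sham and CIH, and sham and CIH overlapped, the same order of groups as for Nppa. MI+CIH against CIH gave a log2 fold change of 1.08 (SE 0.26, adjusted p = 0.0106), lost when only those groups entered the fit (adjusted p = 0.0646), and MI+CIH against sham gave 0.81 (SE 0.26, adjusted p = 0.0506). The averaged infarction value was 0.72 (SE 0.18, adjusted p = 0.0157). The 10 nerve markers summed to 7.49 to 10.5 FPKM in sham, 4.46 to 17.4 for MI, 4.41 to 13.3 for CIH and 8.39 to 14.6 for MI+CIH. Of the 6 tested, 0 passed in the averaged comparison (24.1% of all genes) and 1, Gap43, rose in MI+CIH against CIH (19.9% of all genes). Th, a marker enzyme of sympathetic nerves, was at 0 in 6 libraries, while Dbh, another such enzyme, was at 1.127 to 6.044 FPKM in every library. The 3 related hydrolases (Uchl3, Uchl5 and Bap1) had 0 calls in every comparison, with the smallest p of the averaged comparison in Uchl3 (-0.14, SE 0.12, adjusted p = 0.437).

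Tnfrsf12a encodes Fn14, the receptor of the cytokine TWEAK, and lies on chromosome 17 at 23675445 to 23677468, minus strand (GRCm38). Its FPKM was 59.4, 31.9 and 34.1 in sham, 104, 119 and 80.2 in MI, 36.6, 84.0 and 56.7 in CIH, and 55.4, 52.6 and 71.2 in MI+CIH. MI lay above sham and above MI+CIH, and every other pair of groups overlapped. MI against sham gave a log2 fold change of 1.3 (SE 0.31, adjusted p = 0.0589), which passed without CIH 1 (adjusted p = 0.0318) or CIH 2 (adjusted p = 0.038), and when only those groups entered the fit or genes were filtered at a mean of 1 FPKM. MI+CIH against CIH gave 0.08 (SE 0.31, adjusted p = 0.866). The averaged infarction value, 0.69 (SE 0.22, adjusted p = 0.0402), was lost under scaling by medians of ratios (0.55, adjusted p = 0.084). It was also lost without any 1 of sham 2, sham 3, MI 1, MI 2, CIH 1, CIH 3, MI+CIH 1 or MI+CIH 3 (adjusted p 0.0564 to 0.0911). Of 10 other TWEAK pathway genes 9 were tested, and in the averaged comparison 3 rose and 0 fell (17.2% and 6.89% of all genes), led by the adaptor Traf1 (0.61, SE 0.17) and the kinase Map3k14 (0.52, SE 0.15). In MI against sham 0 of the 9 passed (smallest p, Birc3, 0.47, SE 0.24, adjusted p = 0.347).

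Hopx, a homeodomain protein that binds no DNA itself and restrains serum response factor, was the member of the 10 that fell. It lies on chromosome 5 at 77086988 to 77115121, minus strand (GRCm38). Its FPKM was 60, 53.1 and 48.4 in sham, 43.1, 45.2 and 47.9 in MI, 68.1, 73.9 and 71.7 in CIH, and 26.6, 45.9 and 17.1 in MI+CIH. All CIH libraries lay above all sham libraries, all sham above MI and MI+CIH, and MI and MI+CIH overlapped. MI+CIH against CIH gave a log2 fold change of -1.35 (SE 0.27, adjusted p = 0.00513) and MI+CIH against sham gave -0.95 (SE 0.27, adjusted p = 0.0333). The call against sham was lost without sham 1 (adjusted p = 0.115), sham 2 (0.0823), sham 3 (0.0608), MI+CIH 1 (0.0731) or MI+CIH 3 (-0.61, adjusted p = 0.0917). It was also lost with no filter on low values (adjusted p = 0.0544) and with only those groups in the fit (0.116). Without sham 2 and MI+CIH 3 together it was lost too (-0.62, adjusted p = 0.174), so that it passed in 12 of 20 alternative settings. The averaged infarction value was -0.80 (SE 0.19, adjusted p = 0.012). MI alone against sham gave -0.24 (SE 0.27, adjusted p = 0.712). Hopx is also made by alveolar epithelium. Lung and airway markers summed to 312, 3501 and 1239 FPKM in MI+CIH 1, 2 and 3, where Hopx stood at 26.6, 45.9 and 17.1. In sham 2 they summed to 545 FPKM, and Hopx (53.1) lay between the other sham libraries. Beside Hopx, 5 of the 8 cardiomyocyte markers fell in MI+CIH against CIH (8.26% of all genes) and 4 in the averaged comparison (6.89%). In MI+CIH against sham 2 fell (5.51% of all genes), and in MI against sham 0 did (0.593%). The part of these markers in the Hopx values was not tested.

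Of the 12 genes on a wider list of muscle stress proteins, 6 rose and 0 fell in the averaged infarction comparison (17.2% and 6.89% of all genes), led by Fhl1, a LIM protein of the stretch response (0.80, SE 0.11, adjusted p = 0.000894), and Ankrd1, a titin-bound stress protein (0.76, SE 0.18, adjusted p = 0.0111). The median of the list was 0.58, against 0.13 over all genes. In MI against sham 1 of the 12 passed, Fhl1 (0.77, SE 0.15, adjusted p = 0.0289), and in MI+CIH against MI 0 of the 12 did, with a list median of -0.39 against 0.05 over all genes. In the averaged infarction comparison, 7 of the 7 activated fibroblast markers tested rose, and 6 of 7 fat cell markers (17.2% of all genes). In MI against sham 5 and 0 of them rose (1.37% of all genes), and in MI+CIH against MI 0 and 0 (0.239%). The fibroblast marker sum was 80.8 to 120 FPKM in sham, 309 to 597 for MI, 80.3 to 163 for CIH and 548 to 1575 for MI+CIH.

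**Figure D4:**
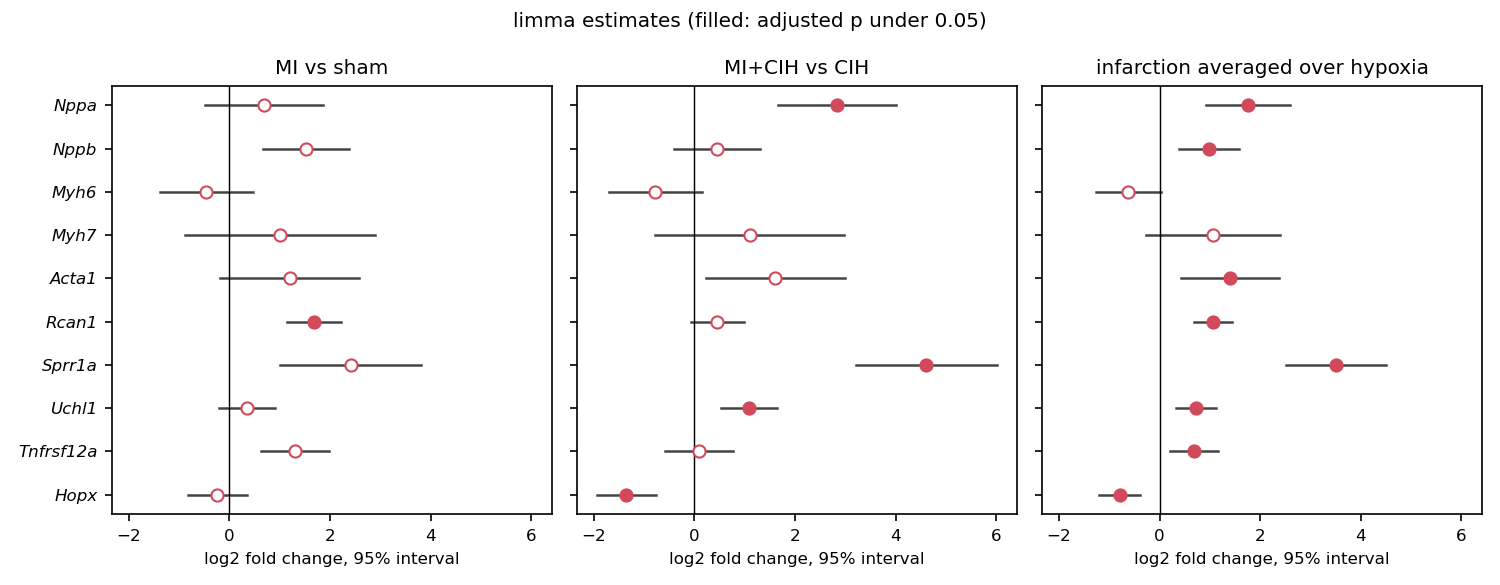
Log2 fold changes of the 10 genes with 95% intervals from the limma fit, for MI against sham, MI+CIH against CIH, and infarction averaged over hypoxia; filled points have an adjusted p under 0.05. Rcan1 is the filled point at 1.68 in MI against sham, and Sprr1a is the farthest to the right in each panel (2.41, 4.61 and 3.51).

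Infarction without and with hypoxia was set side by side. MI against sham called Rcan1, where 1.96% of all genes passed. MI+CIH against CIH called Nppa, Sprr1a and Uchl1 as higher and Hopx as lower, where 28.2% of all genes passed. Both comparisons use means of different libraries, but the fit took its estimate of the spread from all libraries, so their calls are not independent. The median log2 fold change of the 10 was 1.11 in MI against sham (all genes 0.06) and 0.77 in MI+CIH against CIH (all genes 0.20). In MI+CIH against sham, where 16.8% of all genes passed (11.3% rose and 5.51% fell), 2 rose (Sprr1a and Rcan1) and 1 fell (Hopx). That count was 1 without sham 1 or sham 2, and 5 without CIH 2. Of all calls, 69.7% were rises in MI against sham, 70.7% in MI+CIH against CIH, 67.2% in MI+CIH against sham and 71.4% in the averaged comparison. Scaling by medians of ratios changed these shares to 58.7%, 46.8%, 46.9% and 47.9%, and moved the all-gene median from 0.20 to 0.03 for MI+CIH against CIH and from 0.13 to 0.01 in the averaged comparison.

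The difference between the 2 infarction effects was tested by the interaction term, in which 0.0774% of all genes passed and 0 of the 10 did. An unadjusted p under 0.05 was found for 5 of the 10 and for 3294 of all 15503 genes. Nppa had an interaction of 2.16 (SE 0.76, adjusted p = 0.144) and Sprr1a of 2.20 (SE 0.90, adjusted p = 0.197), a larger estimate of infarction under hypoxia. Rcan1 had -1.22 (SE 0.35, adjusted p = 0.0899), Tnfrsf12a -1.22 (SE 0.44, adjusted p = 0.149) and Nppb -1.07 (SE 0.55, adjusted p = 0.287), a smaller estimate under hypoxia. Hopx had -1.11 (SE 0.38, adjusted p = 0.131), which for this gene is a larger fall under hypoxia (-1.35) than without it (-0.24). Without MI+CIH 2, Hopx passed (-1.48, adjusted p = 0.0169). Interaction calls over all genes were rises in 91.7% of 12, and in 39.4% of 155 after scaling by medians of ratios.

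**Figure D5:**
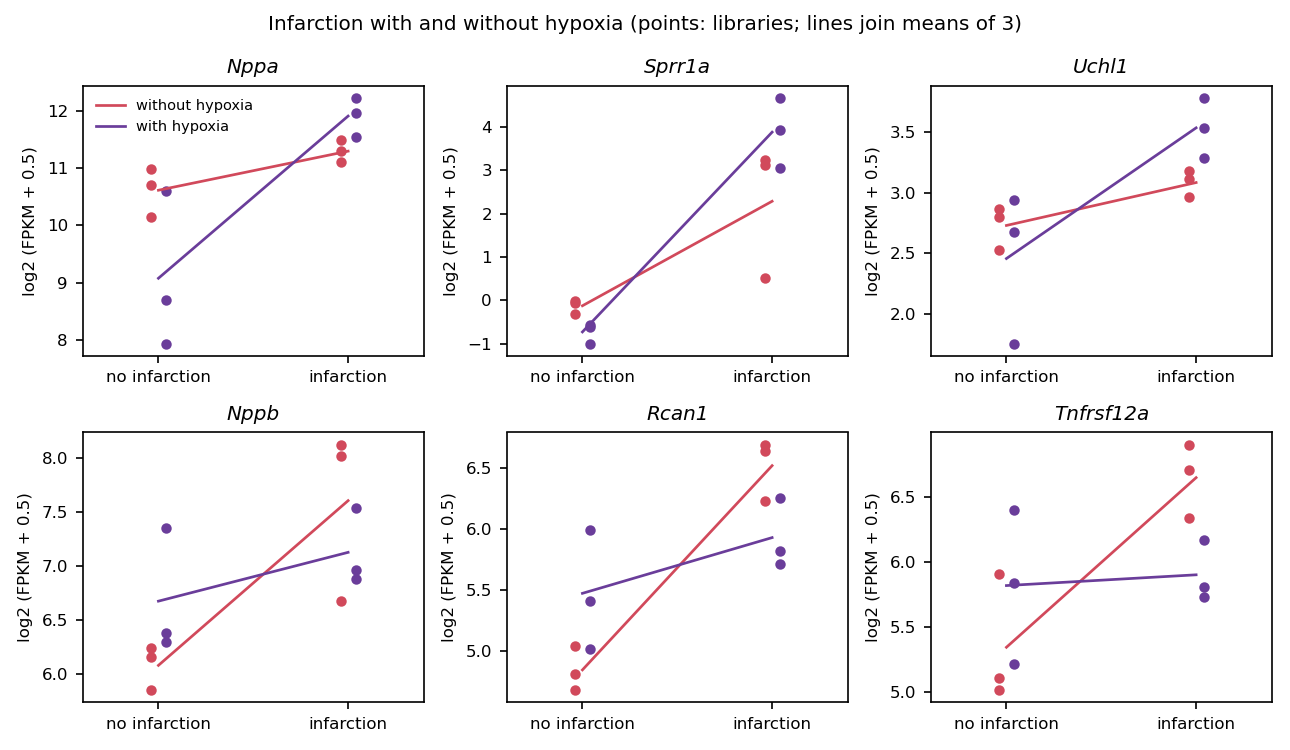
Log2(FPKM + 0.5) of 6 members without and with infarction, red for hearts without hypoxia (sham, MI) and purple for hearts with it (CIH, MI+CIH); points are libraries and lines join means of 3. The lines of Nppa, Sprr1a and Uchl1 are steeper with hypoxia and those of Nppb, Rcan1 and Tnfrsf12a steeper without, and none of these differences passed the interaction test.

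No member passed for hypoxia in any comparison. In CIH against sham 0 of the 10 passed, where 0.00645% of all genes did. There 1836 of all 15503 genes had an unadjusted p under 0.05, and 2 of the 10 did, Nppa (-1.54) and Rcan1 (0.63, SE 0.25, adjusted p = 0.362). In MI+CIH against MI 0 of the 10 passed, where 0.329% of all genes did. There 2934 of all 15503 genes had an unadjusted p under 0.05, and 4 of the 10 did. These were Sprr1a (1.60, SE 0.63, adjusted p = 0.206), Rcan1 (-0.59, SE 0.25, adjusted p = 0.219), Tnfrsf12a (-0.74, SE 0.31, adjusted p = 0.22) and Hopx (-0.71, SE 0.27, adjusted p = 0.187), the last passing without MI+CIH 2 (-1.07, adjusted p = 0.0144). Calls in MI+CIH against MI were rises in 72.5%, and in 50.6% after scaling by medians of ratios. For hypoxia averaged over infarction, 0 of the 10 and 0 of all genes passed limma, while 1539 genes and 0 of the 10 had an unadjusted p under 0.05. The 95% interval of that value was -1.29 to 0.37 for Nppa and -0.36 to 0.40 for Rcan1.

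Genes whose levels followed a member most closely over the 12 libraries were named by Pearson r of log2 values, as a description. The libraries share their groups, so any gene that differs between groups can score high. For Nppa they were H2-D1 (r = 0.968), Dkk3 (0.965), which is also on the atrial list, and Tmem9 (0.962). For Nppb they were Spcs3 (0.917), Dync1li1 (0.909) and Tex30 (0.902). For Myh6 they were Ube2ql1 (0.943), Sync (0.943) and Anks1 (0.93), and for Myh7 they included Tnfrsf23 (0.926) and Eml3 (0.909). Eml3 had a Spearman coefficient of 0.594 with Myh7, whose spread comes largely from 1 library.

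Sprr1a was closest to Nox4 (r = 0.966), an oxidase, and to Ltbp2 (0.965) and Gxylt2 (0.965). Acta1 was closest to Itga9 (0.952), Col4a3 (0.951) and Atp6v0a4 (0.921). Uchl1 was closest to Myh10 (0.953), a non-muscle myosin, Pofut2 (0.946) and Tagln2 (0.934). Rcan1 was closest to Arntl (0.961), a core gene of the circadian clock, Fam124b (0.942) and Cdkn1a (0.936). The labels give no hour of collection, so collection time and group cannot be told apart for Rcan1. Genes close to Tnfrsf12a included Ddx39 (0.936) and Zfx (0.881). Hopx was closest to the mitochondrial genes Atp5f1 (0.967), Pmpcb (0.967) and Sod2 (0.966). Among the members themselves, Nppa with Uchl1 (0.88), Rcan1 with Tnfrsf12a (0.80) and Nppb with Rcan1 (0.77) ran together, Myh6 with Myh7 (-0.85) and Sprr1a with Hopx (-0.80) ran opposite.

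Antisense genes overlap exons of 5 members by 114 to 532 bases in GENCODE M21: Gm13054 at Nppa, Gm49130 at Myh6, Mhrt, Gm29015 and Gm31251 at Myh7, Uchl1os at Uchl1 and Hopxos at Hopx. The strand setting of the counting is not given in the sources used here, so reads of a member and of its antisense partner cannot be told apart.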

How the data were processed

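Heart RNA was sequenced in 12 libraries. Per the labels' protocols, total RNA was extracted with Trizol from flash-frozen hearts and libraries were made with a small RNA kit, although the series describes mRNA profiles. The authors deposited FPKM values per Ensembl gene. HISAT, DESeq 1.8.3, the build mm10 and featureCounts 1.5.0-p3 are listed, without roles, per the submitters' processing notes. FPKM keeps no count, so reads were recovered from FPKM steps with GENCODE M21 exon lengths; 89.7% of 25404 genes came out whole in every library (tolerance 0.1 reads).

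Genes with at least 0.5 FPKM in 3 or more libraries (15503) were fitted on log2(FPKM + 0.5) with limma 3.58.1 (trend, robust; R 4.3.3), 1 mean per group, with Benjamini-Hochberg adjustment inside each of 8 comparisons (threshold 0.05). The averaged comparisons are the means of 2 contrasts. The myosin ratio used exact two-sided permutation tests, within strata for averages. The fit was tested on simulated data with independent noise and no outlying library. That run does not measure how the fit performs on these libraries. Symbols came for 26691 of 26781 identifiers. Members and gene lists were chosen with earlier results of these data known. Named list genes are the 2 with the smallest p per direction and comparison, or the 1 with the smallest p, and the 3 most correlated genes per member (for Myh7 and Tnfrsf12a, 1 of the 3 is not reported here); skeletal, atrial and other marker genes named beside a result were chosen after their values were seen. Alternatives were other pseudocounts, filters, scaling, a block on library number, fits of the compared groups only, and left-out libraries.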

Additional observations from a re-analysis of the deposited data

How the results depend on the processing

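No member changed direction where it was called. Over infarction averaged over hypoxia, Nppa, Rcan1, Sprr1a, Uchl1 and Hopx passed in all 19 alternative settings. Nppb passed in 12 of these, and Acta1 and Tnfrsf12a in 7 each. All of these genes also passed in the main fit, which is not among the 19. Members called ranged, with each library left out in turn, over 0 to 3 (MI against sham), 0 to 0 (CIH against sham, and hypoxia averaged), 0 to 1 (MI+CIH against MI, and the interaction), 4 to 5 (MI+CIH against CIH), 1 to 5 (MI+CIH against sham) and 5 to 7 (infarction averaged). Genes called ranged over 22 to 484, 0 to 124, 0 to 1029, 2826 to 4590, 976 to 3035, 0 to 999, 2481 to 4167 and 0 to 1 in the order MI against sham, CIH against sham, MI+CIH against MI, MI+CIH against CIH, MI+CIH against sham, interaction, infarction averaged and hypoxia averaged.

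Genes called under other settings, with the main count first, were as follows. MI against sham called 304, 143 with no filter, 1042 with only the groups compared, 177 with a block on library number, and 65 without sham 2 and MI+CIH 3 together. CIH against sham called 1, and 0 under scaling, with only the groups compared, with the block and without that pair. MI+CIH against MI called 51, 82 with no filter, 12 at a mean of 1 FPKM, 0 at pseudocount 0.1, 77 under scaling, 0 with only the groups compared, 14 with the block and 10 without that pair. MI+CIH against CIH called 4368, 1475 with only the groups compared and 2291 without that pair. MI+CIH against sham called 2603, 1173 and 563 likewise. The interaction called 12, 1 with no filter, 2 at pseudocount 0.1, 155 under scaling, 0 with the block and 0 without that pair. Infarction averaged called 3737 and 2228 without that pair, and hypoxia averaged called 0 and 1 with no filter. Members called in MI against sham were 2 at a mean of 1 FPKM, 2 with only the groups compared and 0 without that pair, and in MI+CIH against sham 1 without that pair.

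The myosin log2 ratio differed, with each library left out, by -1.91 to -1.18 (MI against sham), -1.86 to -1.10 (CIH against sham), -2.97 to -0.05 (MI+CIH against MI), -3.06 to -0.14 (MI+CIH against CIH), -4.45 to -1.53 (MI+CIH against sham), -1.59 to 1.33 (interaction), -2.27 to -0.81 (infarction averaged) and -2.18 to -0.72 (hypoxia averaged). Without sham 2 and MI+CIH 3 together the interaction was 1.76. Library numbers gave no sign of pairing: correlations of deviations were -0.17 to 0.13 between libraries with the same number and -0.16 to 0.18 otherwise. The labels give no pairing, and these correlations cannot exclude a shared batch. The block left 6 members called for infarction averaged, Acta1 and Tnfrsf12a being lost. The cause of each change was not tested. Recovered reads set the depth limit, which matters for Sprr1a alone among the members.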
